A study of Homo sapiens with 12 samples.

Results

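The genes described here belong to the cellular stress programme built around the transcription factor ATF4 and the endoplasmic reticulum (ER), and to the hypoxia and glycolysis programme. Of 45 listed genes, 26 had a probe set that the platform annotation names, out of 14884 named genes on the array. Each of the 26 had 1 probe set. They fall into 15 of 25 stress genes (11 of 15 in the ATF4 response and 4 of 10 in ER folding) and 11 of 20 hypoxia and glycolysis genes (8 of 9 in hypoxia and 3 of 11 in glycolysis). The 19 without a named probe set were CHAC1, SLC7A11, PPP1R15A, SLC3A2, HSPA5, HSP90B1, DNAJB9, HERPUD1, PDIA4, EDEM1, CA9, PDK1, SLC2A1, SLC2A3, PFKFB3, PFKFB4, PFKP, ALDOA and ALDOC, and were not analysed here. No filter on dim genes was used, so all 26 entered every test.

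RNA came from Ishikawa cells, an established line of human endometrial adenocarcinoma, and 12 arrays were labelled as 4 groups of 3. These were shMOF ERα(+), control ERα(+), shMOF ERα(-) and control ERα(-). The prefix sh is that of a short hairpin RNA, KAT8 encodes MOF, an acetyltransferase of histones, and ESR1 encodes ERα, a receptor for oestrogen. The sources do not give what was done to make cells ERα(+) or ERα(-), the hairpin's sequence, the number of clones or whether replicates came from separate cultures. A p-value here thus reflects only how far these arrays spread, and that spread may be technical.

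Cells that run short of amino acids, or whose ER fills with unfolded protein, slow general translation through the phosphorylation of eIF2α. This favours the translation of ATF4, which switches on genes for amino acid synthesis, for redox balance and, under lasting stress, for cell death. A separate arm of the unfolded protein response raises the chaperones and folding factors of the ER. When oxygen is short, the prolyl hydroxylases stop marking hypoxia-inducible factor (HIF) for destruction, and HIF raises genes for vessel growth, mitophagy, glucose uptake and glycolysis. DDIT4, VEGFA and STC2 are known to respond to both kinds of stress, so the programmes are not separate.

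Promoter windows are shown for DDIT4, BNIP3, ANKRD37 and HK2, which stood among the members that varied most and hold the core of the HIF site. XBP1 and CRELD2 are shown as the ER folding genes with the element of that arm, and ASNS as an ATF4 response gene with the site that ATF4 binds. The sequences come from RefSeq (GRCh38.p14), where 22 of the 26 members had a window. Of these, 7 had several windows, and the most upstream along the gene was used for every gene. For 3 members, TRIB3, ASNS and PGAM1, that window starts inside the gene's annotated span. Each sequence is the 200 bases before the start of transcription, read 5′ to 3′ along the gene. In DDIT4, BNIP3, ANKRD37 and HK2 the capitals mark ACGTG, the core of the HIF site, which reads CACGT where it lies on the opposite strand and CACGTG where matches on both strands overlap. In XBP1 and CRELD2 the capitals mark the ER stress element, searched on both strands as CCAAT and CCACG with 9 bases between them and found on the opposite strand in CRELD2. In ASNS they mark TGATGNAA, the composite site that ATF4 binds with C/EBP proteins. The windows of DDIT4 (chr10:72273724-72273923), ANKRD37 (chr4:185396641-185396840), HK2 (chr2:74833927-74834126) and CRELD2 (chr22:49918434-49918633) are on the plus strand, and those of BNIP3 (chr10:131981924-131982123), XBP1 (chr22:28800570-28800769) and ASNS (chr7:97872409-97872608) on the minus strand.
DDIT4: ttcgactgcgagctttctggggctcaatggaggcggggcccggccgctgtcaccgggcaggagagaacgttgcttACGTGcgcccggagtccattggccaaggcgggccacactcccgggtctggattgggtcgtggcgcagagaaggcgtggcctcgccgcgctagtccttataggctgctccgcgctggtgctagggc
BNIP3: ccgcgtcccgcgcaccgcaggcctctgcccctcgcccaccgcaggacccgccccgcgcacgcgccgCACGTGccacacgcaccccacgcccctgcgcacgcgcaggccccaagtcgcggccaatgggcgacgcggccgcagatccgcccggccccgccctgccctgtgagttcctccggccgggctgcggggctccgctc
ANKRD37: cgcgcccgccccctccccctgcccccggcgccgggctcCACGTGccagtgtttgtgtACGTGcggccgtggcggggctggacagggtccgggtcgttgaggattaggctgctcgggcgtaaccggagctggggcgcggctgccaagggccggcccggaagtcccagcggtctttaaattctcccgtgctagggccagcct
HK2: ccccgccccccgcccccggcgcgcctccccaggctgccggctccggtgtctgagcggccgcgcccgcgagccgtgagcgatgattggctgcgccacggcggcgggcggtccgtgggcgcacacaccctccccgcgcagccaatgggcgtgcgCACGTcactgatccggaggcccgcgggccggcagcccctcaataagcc
XBP1: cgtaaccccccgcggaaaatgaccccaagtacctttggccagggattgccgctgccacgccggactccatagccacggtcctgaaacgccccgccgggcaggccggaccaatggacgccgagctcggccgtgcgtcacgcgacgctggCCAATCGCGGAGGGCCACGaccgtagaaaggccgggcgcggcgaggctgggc
CRELD2: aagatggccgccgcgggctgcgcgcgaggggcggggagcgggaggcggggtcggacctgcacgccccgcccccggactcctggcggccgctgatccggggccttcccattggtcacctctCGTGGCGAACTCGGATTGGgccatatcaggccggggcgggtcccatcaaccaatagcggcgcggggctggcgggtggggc
ASNS: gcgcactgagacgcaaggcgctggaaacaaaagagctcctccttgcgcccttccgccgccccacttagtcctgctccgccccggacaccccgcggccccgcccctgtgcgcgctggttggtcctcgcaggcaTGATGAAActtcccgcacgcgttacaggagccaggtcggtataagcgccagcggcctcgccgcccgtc

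Over the window from 250 bases before to 50 after the start, ACGTG occurred in 7 of 22 members (31.8%) and in 21.6% of the windows of all 27305 genes. The 7 were ATF4, DDIT4, XBP1, BNIP3, ANKRD37, EGLN1 and HK2. In XBP1 and at a second place in HK2 it begins upstream of the bases printed. The ER stress element occurred in 2 of 22 members, XBP1 and CRELD2, and in 0.0769% of all windows. TGATGNAA, searched on both strands, occurred in 2 of 22 members, ASNS and HK1, and in 3.67% of all windows. A match is a description of the sequence only.

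The measured value was a log2 signal, on which 1 unit is a doubling. The authors normalised the arrays, and their medians were 4.53 to 4.59 over 53617 probe sets. KAT8, the gene named in the shMOF label, read 6.66 to 7.02 in shMOF ERα(+) against 6.60 to 6.81 in control ERα(+), and 6.72 to 6.78 in shMOF ERα(-) against 6.68 to 6.87 in control ERα(-). The targeted gene therefore did not follow the label at the RNA level, and every direction below is between arrays labelled shMOF and arrays labelled control. ESR1 likewise did not follow the ERα label at the RNA level. It read 4.27 to 4.28 in shMOF ERα(+) against 4.34 to 4.52 in shMOF ERα(-), and 4.32 to 4.65 in control ERα(+) against 4.12 to 4.43 in control ERα(-). All these values lie below the median gene's level of 5.66, where the method that made the values can compress differences. ESR1 is therefore a weak check of that label. Of 10 measured markers of endometrial epithelium, 9 lay above the median gene's level, as did 0 of 4 markers of fibroblasts and stroma and 1 of 6 of immune and endothelial cells. Among the epithelial markers KRT18, a gene of chromosome 12, has 2 probe sets. In the platform's numbering the probe set used lies between those of XBP1, on chromosome 22, and MANF, on chromosome 3. Whether it reads KRT18 or another sequence was not tested.

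One array stood apart for these members before any comparison. The members were chosen with earlier results of these data known. Their counts and ranks on this array thus describe the list and are no test, also beside the share of all genes. Control ERα(-) replicate 1 gave the highest value of the 12 arrays for 19 of 26 members, where the share over all genes was 13.8%. It exceeded every other array by more than 1 log2 unit for 15 of 26 members and for 37 of all 14884 genes (0.249%). Members thus made up 15 of those 37 genes. The 5 genes with the widest margin over all other arrays were STC2, BNIP3, ANKRD37, DDIT3 and DDIT4, all of them members of the list so chosen. It was the lowest array for 0 members, and the share of all genes lowest on it was not counted. Its correlation with the other arrays across genes, which are not independent replicates, ran from 0.977 to 0.9868 with a median of 0.9843. That among the other 11 ran from 0.9651 to 0.9939 with a median of 0.9892. The least alike pair of arrays thus did not include it. Results that rest on this array are given with and without it. Many members stood apart on it, so leaving it out narrows the spread of those members by construction. Counts of members in the fit without it are description and no test, also beside the share of all genes.

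Among the measured members the split largely followed the role of the genes. All 11 ATF4 response genes and 7 of 8 hypoxia genes were highest on that array, against 0 of 4 ER folding genes and 1 of 3 glycolysis genes. The ER folding side rests on 4 of 10 listed genes and the glycolysis side on 3 of 11. The mean log2 signal of the ATF4 response genes was 9.12 on control ERα(-) replicate 1 and 7.21 to 7.96 on the other 11 arrays. That of the hypoxia genes was 8.61 on control ERα(-) replicate 1 and 6.57 to 7.19 on the others. The glycolysis genes averaged 7.87 on that array and 6.92 to 7.49 on the others, a margin set by HK2. The ER folding genes averaged 7.38 on that array, inside the 7.24 to 7.52 of the others. Epithelial markers averaged 7.83 on it and 7.75 to 8.37 on the others. It was the lowest array for 5 of 10 of them, a count with no share of all genes beside it. Stromal markers averaged 3.63 on it and 3.42 to 3.72 on the others, and immune and endothelial markers 4.41 on it and 4.24 to 4.64 on the others. The part that cell make-up had in the result was not tested, and fewer cells of a type cannot be told apart from less RNA per cell.

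**Figure D1:**
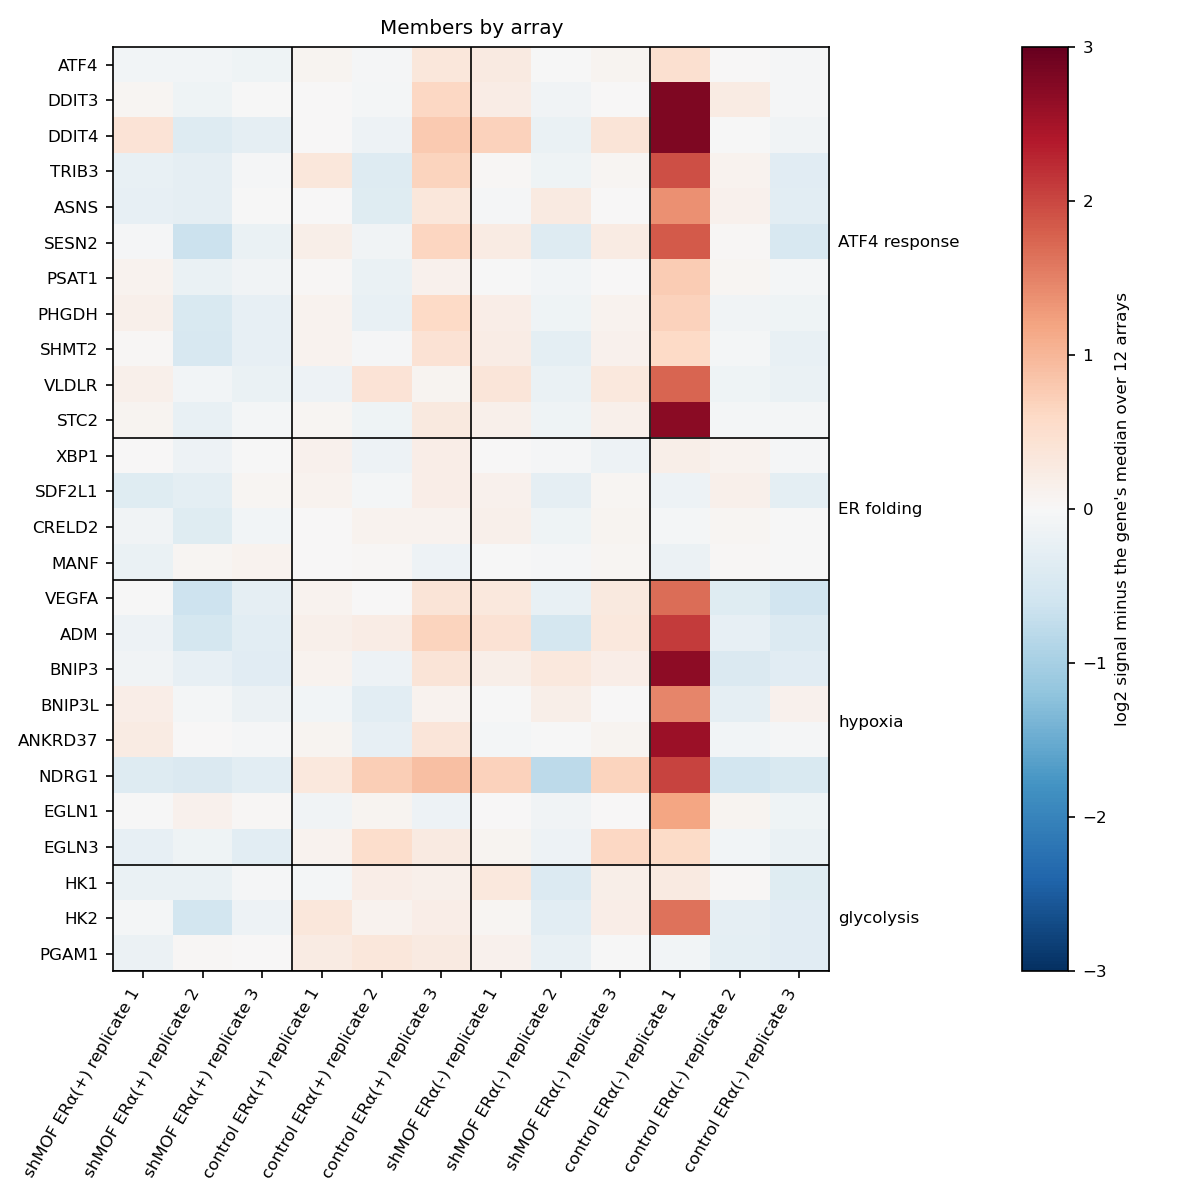
Log2 signal of each of the 26 members (rows, grouped by role) in each of the 12 arrays (columns, grouped by label), as the difference from the gene's median over the 12 arrays, with red for higher and blue for lower. The column of control ERα(-) replicate 1 is red through the ATF4 response and hypoxia rows, where it is the highest array for all 11 and for 7 of 8 genes, and pale through the 4 ER folding rows.

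Among the ATF4 response genes, DDIT4, DDIT3, STC2, SESN2 and TRIB3 had the widest ranges over the 12 arrays. DDIT3, which encodes CHOP, a factor that promotes cell death under lasting ER stress, read 5.51, 5.31 and 5.43 in shMOF ERα(+), 5.45, 5.40 and 6.08 in control ERα(+), 5.67, 5.34 and 5.45 in shMOF ERα(-), and 8.26, 5.70 and 5.41 in control ERα(-). The raised array was 7.01-fold above the median of the other 11, whose values stayed between 5.31 and 6.08. DDIT4, also called REDD1, restrains mTORC1 signalling, and it read 7.61, 6.81 and 6.92 in shMOF ERα(+), 7.20, 7.03 and 7.97 in control ERα(+), 7.87, 6.99 and 7.58 in shMOF ERα(-), and 10.00, 7.18 and 7.09 in control ERα(-). Its raised array stood 7.03-fold above the median of the others, and next came control ERα(+) replicate 3 and shMOF ERα(-) replicate 1. TRIB3, a pseudokinase that ATF4 and CHOP induce and that dampens their activity, read 6.01, 5.96 and 6.21 in shMOF ERα(+), 6.58, 5.85 and 6.91 in control ERα(+), 6.26, 6.10 and 6.29 in shMOF ERα(-), and 8.18, 6.35 and 5.89 in control ERα(-). SESN2, a leucine sensor upstream of mTORC1, read 6.74, 6.13 and 6.57 in shMOF ERα(+), 6.95, 6.68 and 7.41 in control ERα(+), 7.02, 6.38 and 7.01 in shMOF ERα(-), and 8.61, 6.81 and 6.30 in control ERα(-). STC2, a secreted glycoprotein induced by ER stress and by hypoxia, read 7.64, 7.34 and 7.51 in shMOF ERα(+), 7.61, 7.42 and 7.86 in control ERα(+), 7.72, 7.42 and 7.72 in shMOF ERα(-), and 10.27, 7.49 and 7.49 in control ERα(-). For STC2 the other 11 arrays spanned only 0.52 log2 units, and its margin of 2.41 over the highest of them was the widest of all genes.

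ATF4 itself varied less than its targets. Its probe set read 9.50, 9.50 and 9.47 in shMOF ERα(+), 9.67, 9.56 and 9.94 in control ERα(+), 9.86, 9.57 and 9.68 in shMOF ERα(-), and 10.08, 9.61 and 9.56 in control ERα(-). The raised array was 1.43-fold above the median of the others and 0.15 log2 units above the next array, control ERα(+) replicate 3. ATF4 is known to be controlled mainly at translation, which an array of RNA does not measure. The genes of amino acid synthesis lay between these extremes. ASNS, asparagine synthetase, was 8.83 on control ERα(-) replicate 1 and 7.10 to 7.80 on the others. The serine pathway genes PHGDH and PSAT1 were 8.74 against 7.61 to 8.66 and 11.36 against 10.40 to 10.73. SHMT2, which passes serine carbon into folate metabolism in mitochondria, was 7.40 against 6.32 to 7.24. VLDLR, a lipoprotein receptor that ATF4 is known to induce, was 8.58 against 6.63 to 7.24. These 5 genes were therefore above every other array too, by 0.07 log2 units for PHGDH and up to 1.34 for VLDLR.

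The ER folding genes did not share the high values of that array. XBP1, whose spliced RNA encodes the factor of the folding arm and whose promoter above carries the ER stress element, read 8.30, 8.14 and 8.29 in shMOF ERα(+), 8.42, 8.15 and 8.50 in control ERα(+), 8.30, 8.26 and 8.14 in shMOF ERα(-), and 8.47, 8.41 and 8.27 in control ERα(-). The array counts spliced and unspliced XBP1 RNA together, so splicing is not seen here. SDF2L1, a chaperone co-factor of the ER, read 6.94, 7.03 and 7.37 in shMOF ERα(+), 7.41, 7.26 and 7.51 in control ERα(+), 7.44, 7.05 and 7.38 in shMOF ERα(-), and 7.17, 7.46 and 7.03 in control ERα(-). CRELD2, an ER protein whose promoter above carries it too, read 6.37, 6.11 and 6.38 in shMOF ERα(+), 6.48, 6.57 and 6.58 in control ERα(+), 6.61, 6.34 and 6.54 in shMOF ERα(-), and 6.40, 6.53 and 6.45 in control ERα(-). MANF, a secreted ER protein that protects cells under stress, read 7.45, 7.70 and 7.75 in shMOF ERα(+), 7.66, 7.68 and 7.49 in control ERα(+), 7.64, 7.61 and 7.72 in shMOF ERα(-), and 7.48, 7.69 and 7.63 in control ERα(-). For SDF2L1, CRELD2 and MANF the value of control ERα(-) replicate 1 was 0.87-fold to 0.94-fold the median of the other arrays, and for XBP1 it was 1.13-fold. The 4 genes spanned small ranges in all groups, and in the 4 comparisons of 2 groups described later only CRELD2, between shMOF ERα(+) and control ERα(+), did not overlap.

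Hypoxia genes gave the second block of raised values on that array. BNIP3, which recruits mitochondria for autophagy, read 8.80, 8.67 and 8.58 in shMOF ERα(+), 9.03, 8.76 and 9.30 in control ERα(+), 9.10, 9.23 and 9.11 in shMOF ERα(-), and 11.60, 8.49 and 8.57 in control ERα(-). ANKRD37, an ankyrin repeat protein used as a HIF target in signatures of hypoxia, read 5.75, 5.53 and 5.48 in shMOF ERα(+), 5.60, 5.27 and 5.87 in control ERα(+), 5.46, 5.49 and 5.60 in shMOF ERα(-), and 8.07, 5.42 and 5.47 in control ERα(-). ADM, which encodes the vasodilator peptide adrenomedullin, read 5.98, 5.61 and 5.81 in shMOF ERα(+), 6.28, 6.35 and 6.80 in control ERα(+), 6.56, 5.60 and 6.44 in shMOF ERα(-), and 8.22, 5.89 and 5.73 in control ERα(-). On control ERα(-) replicate 1 these 3 genes stood 6.96-fold, 5.96-fold and 4.73-fold above the median of the other 11 arrays. VEGFA, the growth factor of blood vessels, read 7.16, 6.55 and 6.90 in shMOF ERα(+), 7.27, 7.19 and 7.57 in control ERα(+), 7.49, 6.96 and 7.46 in shMOF ERα(-), and 8.84, 6.82 and 6.61 in control ERα(-). NDRG1, a cytoplasmic protein induced by hypoxia, read 5.56, 5.51 and 5.63 in shMOF ERα(+), 6.24, 6.67 and 6.83 in control ERα(+), 6.63, 5.16 and 6.61 in shMOF ERα(-), and 7.97, 5.38 and 5.47 in control ERα(-). NDRG1 was the member that varied most among the other 11 arrays. Its 3 control ERα(+) arrays and 2 of the 3 shMOF ERα(-) arrays were above 6, and the 3 shMOF ERα(+) arrays, shMOF ERα(-) replicate 2 and the other 2 control ERα(-) arrays were below it.

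BNIP3L, the relative of BNIP3 that clears mitochondria in maturing red cells, read 8.81, 8.56 and 8.45 in shMOF ERα(+), 8.54, 8.31 and 8.73 in control ERα(+), 8.61, 8.78 and 8.62 in shMOF ERα(-), and 10.09, 8.35 and 8.74 in control ERα(-). The prolyl hydroxylases that mark HIF for destruction are themselves HIF targets, and they differed. EGLN1, the main oxygen sensor of most cells, read 8.29, 8.45 and 8.34 in shMOF ERα(+), 8.20, 8.39 and 8.16 in control ERα(+), 8.31, 8.21 and 8.31 in shMOF ERα(-), and 9.50, 8.39 and 8.19 in control ERα(-). EGLN3 read 3.78, 3.88 and 3.71 in shMOF ERα(+), 4.13, 4.54 and 4.29 in control ERα(+), 4.10, 3.87 and 4.63 in shMOF ERα(-), and 4.60, 3.93 and 3.81 in control ERα(-). EGLN1 was 2.29-fold above the median of the others on control ERα(-) replicate 1. EGLN3 was 1.59-fold above it there but lower than on shMOF ERα(-) replicate 3, and it was the only member below the median gene's level, at the 23.0th percentile, where the method that made the values can compress differences.

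Of the glycolysis genes only HK2 had its highest value on that array. HK2, the inducible hexokinase of tumour cells, read 7.47, 6.97 and 7.37 in shMOF ERα(+), 7.86, 7.64 and 7.72 in control ERα(+), 7.58, 7.22 and 7.73 in shMOF ERα(-), and 9.15, 7.26 and 7.18 in control ERα(-). HK1, the hexokinase present in most tissues, read 7.09, 7.08 and 7.25 in shMOF ERα(+), 7.23, 7.48 and 7.44 in control ERα(+), 7.60, 6.87 and 7.47 in shMOF ERα(-), and 7.55, 7.33 and 6.93 in control ERα(-). PGAM1, the phosphoglycerate mutase of the lower part of the pathway, read 6.81, 7.02 and 7.00 in shMOF ERα(+), 7.23, 7.34 and 7.26 in control ERα(+), 7.12, 6.77 and 6.99 in shMOF ERα(-), and 6.91, 6.70 and 6.66 in control ERα(-). HK2 was 3.19-fold above the median of the other arrays, HK1 1.23-fold, and PGAM1 0.936-fold. PGAM1 was highest in the 3 control ERα(+) arrays, which overlapped with no other group. PGAM1 lies on chromosome 10. In the platform's numbering, however, its probe set lies next to those of LUM and DCN, genes of chromosome 12. It lies apart from those of HK1, DDIT4 and BNIP3, which are on chromosome 10. Whether this probe set reads PGAM1 or another sequence was not tested, and every PGAM1 value here rests on it.

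**Figure D2:**
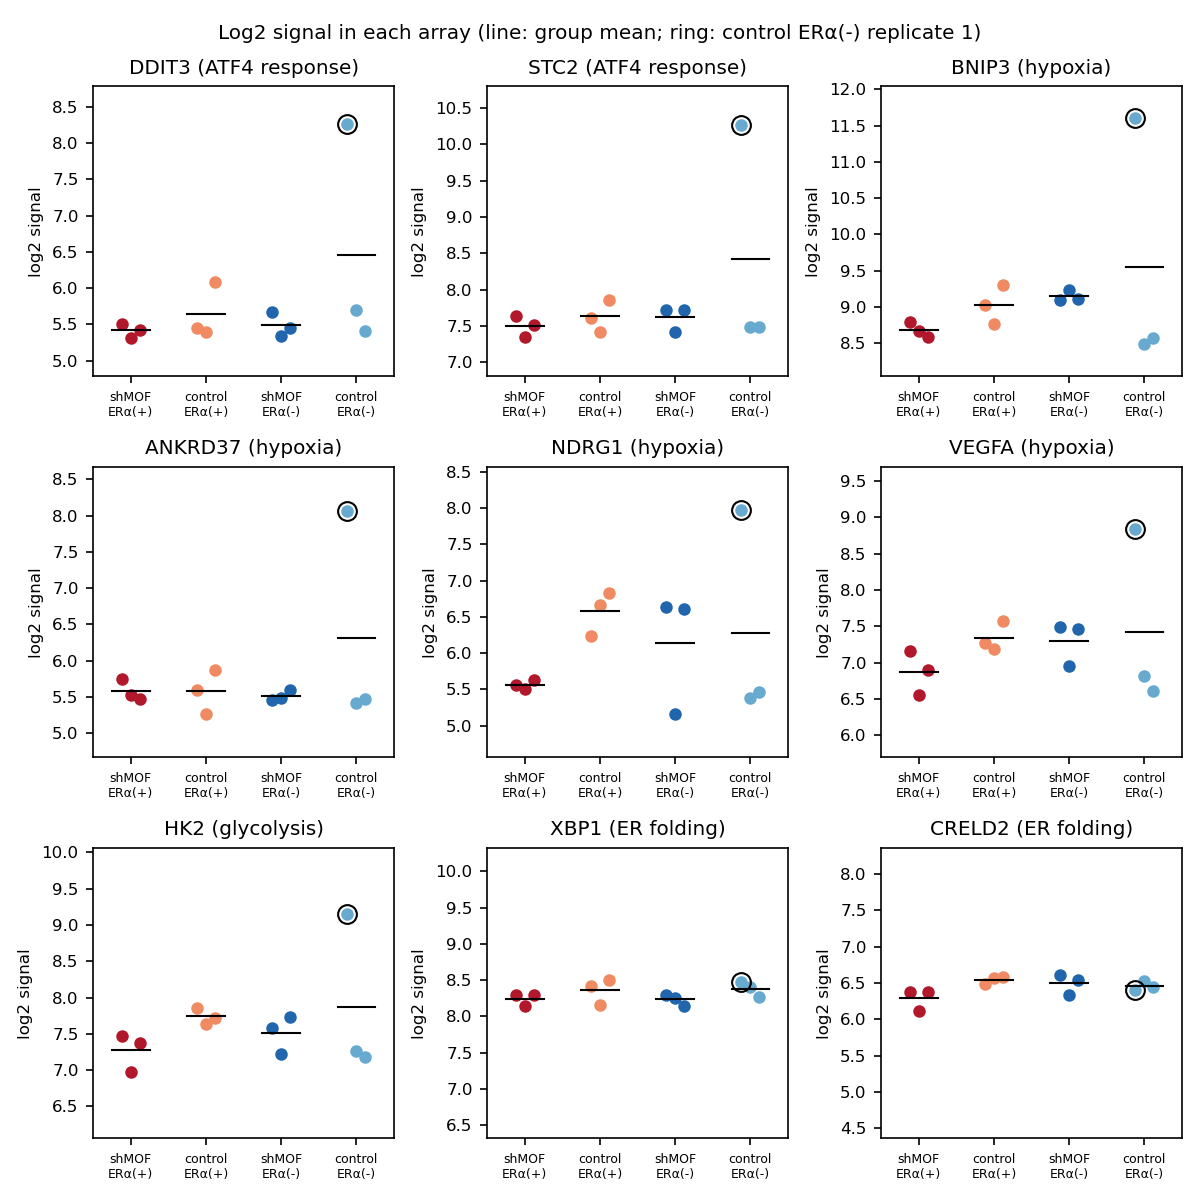
Log2 signal (vertical axis, its own range of levels in each panel) of 9 members in each array, with a point per array, a line at the group mean and a ring around control ERα(-) replicate 1, for shMOF ERα(+), control ERα(+), shMOF ERα(-) and control ERα(-). The ringed point lies far above all others for DDIT3, STC2, BNIP3, ANKRD37, NDRG1, VEGFA and HK2 and among the others for XBP1 and CRELD2.

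Other genes of the same pathways were read from lists of regulators and targets outside the 45. These lists too were chosen with earlier results of these data known, so their counts are description and no test. Over all genes, control ERα(-) replicate 1 was the highest array for 13.8% and more than 1 log2 unit above every other for 0.249%. Of the other stress genes 22 of 40 were measured, and control ERα(-) replicate 1 was the highest array for 10 of them and more than 1 log2 unit above every other array for 1. That gene was ATF3, a stress factor induced by ATF4, at 7.79 on that array and 5.25 to 6.56 on the others. The aminoacyl-tRNA synthetases that ATF4 also induces had smaller margins, with GARS1 0.48 and SARS1 0.36 log2 units above the next array. Of the genes with the widest range in this list, PYCR1, for proline synthesis, read 7.76 inside 6.98 to 8.03, EPRS1, a tRNA synthetase, 10.46 inside 9.75 to 10.60, and ERN1, the sensor that splices XBP1, 5.84 just above 4.86 to 5.71. Of the other hypoxia genes 12 of 22 were measured, with 8 highest on that array and 3 above every other by more than 1 unit. These were INSIG2, a regulator of sterol synthesis, at 8.99 against 6.64 to 7.34, KDM3A, a histone demethylase and HIF target, at 9.06 against 6.82 to 7.51, and LOX, lysyl oxidase, at 7.91 against 5.79 to 6.78. RORA, a nuclear receptor, was 5.11 against 3.25 to 4.20, while EPAS1, which encodes HIF-2α, was 6.64 within 6.47 to 8.22.

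Of the other glycolysis genes 11 of 21 were measured, and control ERα(-) replicate 1 was highest for 5 and above every other array by more than 1 unit for 0. The shares of all genes were 13.8% and 0.249%. PGK1, phosphoglycerate kinase, read 8.89 on that array and 7.47 to 7.93 on the others. LDHA, which turns pyruvate into lactate, read 7.99 against 6.73 to 7.05. GPI, the isomerase after hexokinase, read 10.76 against 9.75 to 10.51. GYS1, glycogen synthase, read 8.07, inside the 7.47 to 8.33 of the others. PGK1, LDHA and GPI were thus above every other array too, and GYS1 was not.

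**Figure D3:**
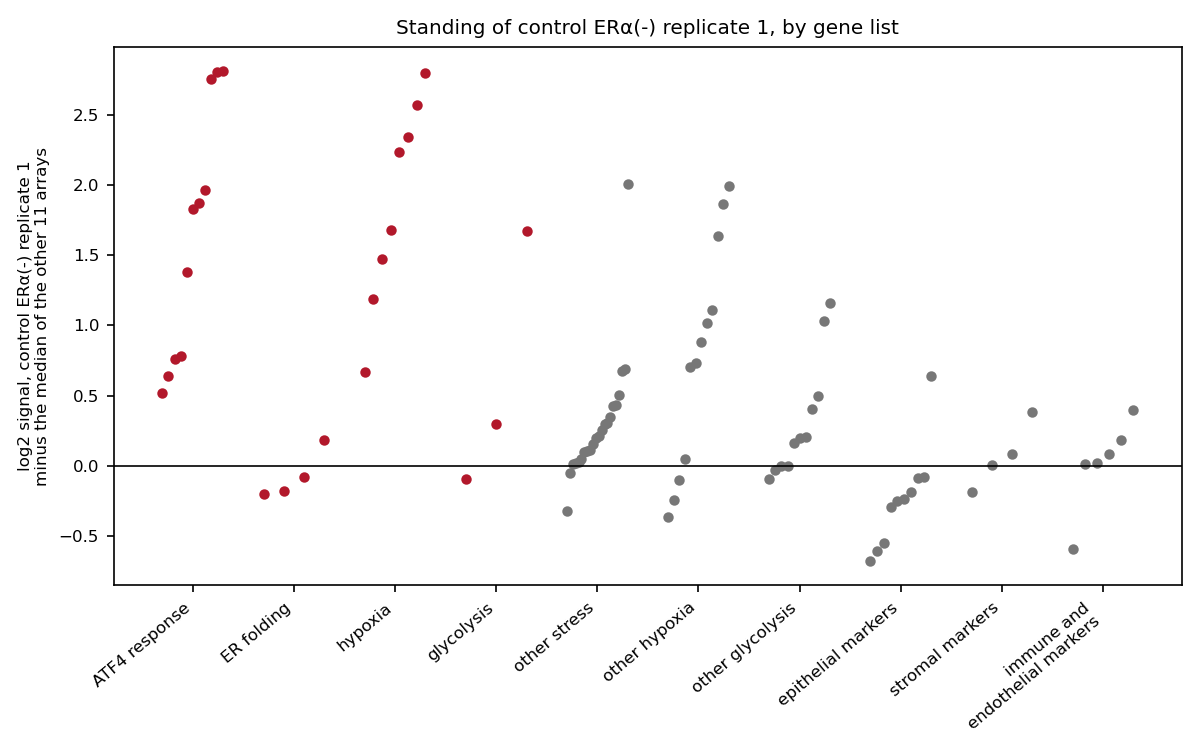
Log2 signal on control ERα(-) replicate 1 minus the median of the other 11 arrays (vertical axis) for every measured gene of each list (horizontal axis), with a point per gene, members in red and other pathway genes and cell type markers in grey. The ATF4 response and hypoxia members lie above 0, up to 2.81, the ER folding members lie near 0, and most epithelial markers lie below 0.

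Smaller differences between arrays of 1 label ran through many members. ShMOF ERα(-) replicates 1 and 3 were both above replicate 2 in 21 of 26 members, where the share over all genes was 43.1%. The same held for 9 of 10 epithelial markers. Control ERα(+) replicate 3 was the highest of the 11 arrays other than control ERα(-) replicate 1 in 17 of 26 members, 10 of 11 of them in the ATF4 response, against 21.1% of all genes. It was also the highest for 7 of 10 epithelial markers. ShMOF ERα(+) replicate 2 was the lowest of those 11 arrays in 10 of 26 members, against 19.8% of all genes, and for 5 of 10 epithelial markers. The part of these array differences in the group comparisons below was not tested beyond leaving out 1 array at a time.

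The first comparison asked how the arrays labelled shMOF differed from control within ERα(-). All 11 ATF4 response genes had a lower mean in shMOF ERα(-), with a median log2 difference of -0.31, and the 4 ER folding genes had a median of 0.05. The median was -0.27 over the 15 stress members and -0.36 over the 11 hypoxia and glycolysis members, against -0.003 over all genes, and 20 of 26 members were below 0, where the share of all genes was 50.6%. DDIT3 averaged 5.49 ± 0.17 in shMOF ERα(-) and 6.45 ± 1.57 in control ERα(-) (SD, n = 3 each), a log2 difference of -0.97 ± 0.52 (SE). Its adjusted p was 0.953 by limma with Benjamini-Hochberg adjustment over all genes. BNIP3 averaged 9.15 ± 0.07 in shMOF ERα(-) and 9.55 ± 1.77 in control ERα(-). The control SD of both genes includes the single raised array.

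No gene passed an adjusted p below 0.05 in limma here, so 0 of 26 members and 0% of all genes were called. At an unadjusted p below 0.05 there were 0 of 26 members and 711 genes (4.78%). The 2 groups overlapped in all 26 members, against 8.76% of all genes without overlap. Without control ERα(-) replicate 1 the direction turned. In that fit 21 of 26 members were above 0, against 50.4% of all genes, and the medians were 0.12 over stress members and 0.29 over hypoxia and glycolysis members. DDIT3 was then at -0.06 ± 0.20 (SE). VEGFA was at 0.59 ± 0.21 (SE, unadjusted p = 0.0149) and BNIP3 at 0.62 ± 0.15 (unadjusted p = 0.00164), both with a limma adjusted p of 0.997, against 1.75% of all genes higher at an unadjusted p below 0.05. VEGFA, BNIP3 and PGAM1 did not overlap between shMOF ERα(-) and the other 2 control ERα(-) arrays, against 8.57% of all genes higher without overlap.

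The second comparison, shMOF against control in ERα(+), does not use the raised array for its means. Hypoxia and glycolysis members had a median log2 difference of -0.35, with 8 of 11 below 0, 3 above 0 and none called, stress members had a median of -0.24, and all genes one of -0.04. Below 0 were 22 of 26 members, where the share of all genes was 56.2%. The 2 groups did not overlap for 8 of 26 members, all lower in shMOF ERα(+), against 14.1% of all genes. They were ATF4, CRELD2, VEGFA, ADM, NDRG1, EGLN3, HK2 and PGAM1, which are 2 of 15 stress members and 6 of 11 hypoxia and glycolysis members. NDRG1 averaged 5.57 ± 0.06 in shMOF ERα(+) and 6.58 ± 0.30 in control ERα(+) (SD, n = 3 each), a log2 difference of -1.01 ± 0.55 (SE, limma adjusted p = 0.318). EGLN3 averaged 3.79 ± 0.09 in shMOF ERα(+) and 4.32 ± 0.21 in control ERα(+), a difference of -0.53 ± 0.22 (limma adjusted p = 0.241). PGAM1 averaged 6.94 ± 0.12 in shMOF ERα(+) and 7.28 ± 0.05 in control ERα(+), a difference of -0.33 ± 0.13 (limma adjusted p = 0.227). ADM was at -0.68, VEGFA and HK2 at -0.47 each, and CRELD2 at -0.26 ± 0.12 (limma adjusted p = 0.267).

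No gene was called here either (0% of all genes, limma). At an unadjusted p below 0.05 stood 2 of 26 members, EGLN3 and PGAM1, both lower, against 8.51% of all genes lower and 2787 genes (18.7%) in either direction. The standard errors of this comparison do hold the raised array, because limma pools the spread over the 4 groups. Without control ERα(-) replicate 1 the mean differences were the same and the standard error of NDRG1 was 0.31 in place of 0.55. In that fit 9 of 26 members were lower at an unadjusted p below 0.05, against 8.98% of all genes, with the smallest unadjusted p of 0.00726 for NDRG1. The 9 were NDRG1, ADM, HK2, VEGFA, EGLN3, PGAM1, BNIP3, SHMT2 and SESN2, and their smallest limma adjusted p was 0.227. Without control ERα(+) replicate 3, the array with the higher stress genes, the stress median was -0.13. The median of the epithelial markers was -0.36 with and without control ERα(-) replicate 1, 9 of 10 were below 0, and 4 of 10 did not overlap and were lower. Of the 10, 3 were lower at an unadjusted p below 0.05 with all arrays and 4 without that array, and none was called. Their part in the result was not tested.

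The third comparison set ERα(+) against ERα(-) in control arrays, and it shares the raised array with the first. PGAM1 was higher in control ERα(+), at 7.28 ± 0.05 against 6.75 ± 0.13 in control ERα(-) (SD, n = 3 each), a log2 difference of 0.52 ± 0.13 (SE, unadjusted p = 9.89e-04, limma adjusted p = 0.333). It was the only member at an unadjusted p below 0.05, against 6.34% of all genes higher and 1894 genes (12.7%) in either direction, and the only one without overlap, against 10.3% of all genes higher. BNIP3L was at -0.53 ± 0.32 and EGLN1 at -0.45 ± 0.25 (limma adjusted p = 0.475 and 0.447). The median was -0.23 over stress members and -0.12 over hypoxia and glycolysis members, against -0.002 over all genes, and 17 of 26 members were below 0 (50.4% of all genes). No gene was called by limma (0% of all genes).

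Without control ERα(-) replicate 1 the third comparison turned as well, for both programmes. In that fit 22 of 26 members had a higher mean in control ERα(+), against 51.4% of all genes, with medians of 0.14 over stress members and 0.50 over hypoxia and glycolysis members. NDRG1 was at 1.15 ± 0.35 (SE), ADM at 0.67, VEGFA at 0.63, HK2 at 0.52, BNIP3 at 0.50, EGLN3 at 0.45 and PGAM1 at 0.60 ± 0.13. These 7 members passed an unadjusted p below 0.05, against 4.32% of all genes higher, and each had a limma adjusted p of 0.574. As above, the count is no test, because many members stood apart on the array left out. These 7 and SHMT2 did not overlap between control ERα(+) and the other 2 control ERα(-) arrays, against 15.8% of all genes higher. Epithelial markers averaged 8.15, 8.14 and 8.37 on the control ERα(+) arrays against 7.83, 7.98 and 7.98 on the control ERα(-) arrays. Their median difference was 0.34 with all arrays, with 4 of 10 higher at an unadjusted p below 0.05, and 0.25 without control ERα(-) replicate 1, with 2 of 10. In both fits 9 of 10 were above 0, and their part in the result was not tested.

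The fourth comparison set ERα(+) against ERα(-) in shMOF arrays. Below 0 were 23 of 26 members, against 55.0% of all genes, with medians of -0.20 over stress members, -0.24 over hypoxia and glycolysis members and -0.03 over all genes. ATF4 and BNIP3 did not overlap and were lower in shMOF ERα(+), against 5.70% of all genes. BNIP3 averaged 8.68 ± 0.11 in shMOF ERα(+) and 9.15 ± 0.07 in shMOF ERα(-) (SD, n = 3 each). Its log2 difference was -0.46 ± 0.57 (SE, limma adjusted p = 0.806), with a standard error of 0.14 without control ERα(-) replicate 1 (unadjusted p = 0.00545, limma adjusted p = 0.719). EGLN3 was at -0.41 ± 0.22, ATF4 at -0.22 ± 0.15 and CRELD2 at -0.21 ± 0.12, each with a limma adjusted p of 0.746. At an unadjusted p below 0.05 stood 0 of 26 members and 793 genes (5.33%), and limma called 0% of all genes. Epithelial markers had a median of -0.13, with 8 of 10 below 0, and their part was not tested.

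The interaction takes the difference between shMOF and control in ERα(+) and subtracts the one in ERα(-), so it uses all 4 groups. PGAM1 was at -0.54 ± 0.18 (SE, unadjusted p = 0.00876, limma adjusted p = 0.219), from -0.33 in ERα(+) and 0.21 in ERα(-). It was the only member at an unadjusted p below 0.05, against 8.69% of all genes lower and 2685 genes in either direction. EGLN3 was at -0.62 ± 0.31 (limma adjusted p = 0.301) and CRELD2 at -0.29 ± 0.17 (limma adjusted p = 0.361). Below 0 were 14 of 26 members, against 53.5% of all genes, and the median was 0.03 over stress members, -0.26 over hypoxia and glycolysis members and -0.03 over all genes. No gene was called (0% of all genes, limma).

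Without control ERα(-) replicate 1 the interaction was below 0 for 24 of 26 members, against 55.0% of all genes. The medians in that fit were -0.35 over stress members, -0.76 over hypoxia and glycolysis members and -0.05 over all genes. BNIP3 was at -0.97 ± 0.21 (SE, unadjusted p = 5.14e-04), NDRG1 at -1.72 ± 0.47, VEGFA at -1.06, ADM at -1.07, EGLN3 at -0.86, HK2 at -0.76 and PGAM1 at -0.61. These 7 passed an unadjusted p below 0.05, against 7.52% of all genes lower, and each had a limma adjusted p of 0.289. BNIP3 was thus at 0.06 with all 12 arrays and at -0.97 without 1 of them. Epithelial markers were below 0 as well, at a median of -0.395 with 9 of 10 below 0 and 3 at an unadjusted p below 0.05. With all 12 arrays their median was -0.45, with 10 of 10 below 0 and 4 at an unadjusted p below 0.05. Their part in the result was not tested.

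**Figure D4:**
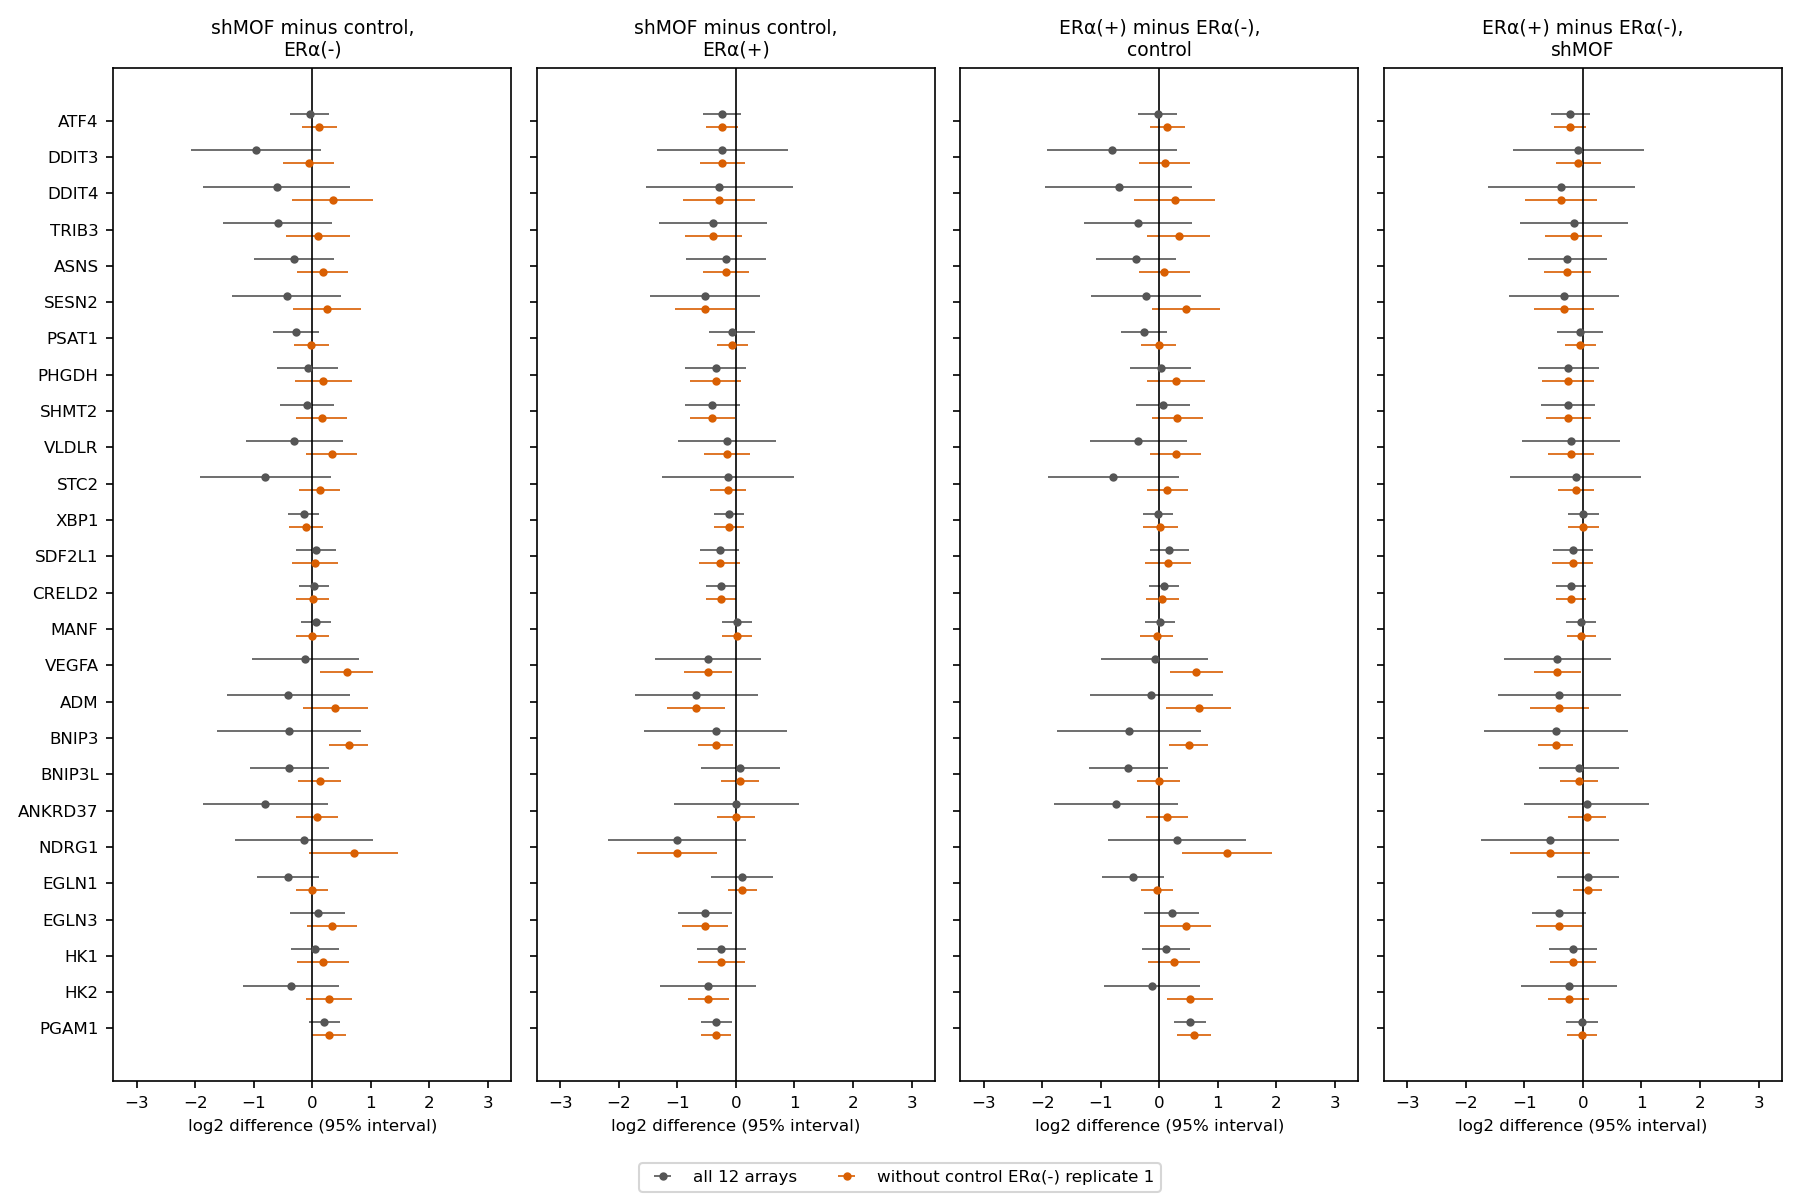
Log2 difference (horizontal axis) with its 95% interval for each of the 26 members (rows) in the 4 comparisons of 2 groups, from the fit with all 12 arrays in grey and from the fit without control ERα(-) replicate 1 in orange. In the comparisons that use control ERα(-), most grey points lie below 0 and most orange points above it, while in the comparisons that do not, the points coincide and the orange intervals are shorter.

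In the 5 comparisons limma called 0 of 22 other stress genes, 0 of 12 other hypoxia genes and 0 of 11 other glycolysis genes, in either direction. At an unadjusted p below 0.05 stood 2 of 22 other stress genes lower in shMOF ERα(-) than in control ERα(-), against 2.68% of all genes, and 3 higher in shMOF ERα(+) than in control ERα(+), against 10.2% of all genes. Lower in control ERα(+) than in control ERα(-) were 3, against 6.38% of all genes, and above 0 in the interaction 4, against 9.35% of all genes. The other hypoxia genes gave at most 2 of 12 in a direction and the other glycolysis genes 0 of 11. These counts are from the fit with all 12 arrays. Without control ERα(-) replicate 1 the interaction had 3 of 12 other hypoxia genes lower, against 7.52% of all genes, and 0 higher. The interaction median of the other glycolysis genes was -0.10 with all 12 arrays and -0.31 without that array. With all 12 arrays the medians of the other glycolysis genes were -0.06 for shMOF against control in ERα(-) and -0.21 in ERα(+). Those of the other hypoxia genes were -0.18 in ERα(-) and -0.07 in ERα(+).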

How the data were processed

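Expression was measured in 12 arrays of 4 labelled groups of 3, from Trizol-extracted, biotin-labelled total RNA, per the labels' protocols. The deposited values are log2 signals that the authors made, per the submitters' processing notes, by RMA in Affymetrix Expression Console 1.4.1. RMA corrects background, equalises the arrays' distributions and combines the probes of each set, so it hides global shifts and can compress differences of dim genes. The authors' genome build and probe annotation were not given in the sources used here.

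Of 53617 probe sets, 16098 had 1 symbol in the platform annotation, 0 had several and 37519 stayed unnamed here. The probe set with the highest mean stood for each of 14884 genes, and all were tested. A mean was fitted for each group with limma 3.58.1 under R 4.3.3 (two-sided moderated test from lmFit and eBayes, with 8 residual and 5.6 prior degrees of freedom), with Benjamini-Hochberg adjustment over all genes in each comparison and a call at an adjusted p below 0.05. The pipeline was tested on simulated data. For the fit these held independent normal noise and no raised array, so its performance with such an array was not tested. The 95% interval of a log2 difference had a median half-width of 0.33 between 2 groups and 0.46 in the interaction. The smallest two-sided p of an exact test is 0.1 with 3 arrays a group. The number of arrays limits the precision.

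The members and lists were chosen with earlier results of these data known, so lists are described by counts and medians and not tested. Values in every array were given for the 5 members with the widest range in each of the 4 role classes and for the 3 with the smallest p in each comparison. From each other pathway list up to 4 genes with the widest range were named, and a few more were named after their values were seen. Lists of epithelial, stromal, and immune and endothelial markers were read in every array. Promoters, 1 window a gene, were searched with Python 3.11.15. Alternatives were each array left out, array quality weights, the compared groups alone, a dim filter, the replicate number as a block and the code letter as a random block, among others.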

Additional observations from a re-analysis of the deposited data

How the results depend on the processing

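The numbers of genes called depended on the treatment of single arrays, and all 5 counts were 0 in the fit reported. Array quality weights, which ran from 0.359 for shMOF ERα(-) replicate 2 to 8.86 for shMOF ERα(-) replicate 3, gave 645 genes for shMOF against control in ERα(-), 1629 in ERα(+), 217 for ERα(+) against ERα(-) in control arrays, 1918 in shMOF arrays and 3258 in the interaction. With them PGAM1 was called between control arrays (0.53, limma adjusted p = 0.0340) and in the interaction (-0.57, 0.0111), and EGLN3 between shMOF arrays (-0.81, 0.0100) and in the interaction (-1.01, 0.0132). EGLN3 had its highest value, 4.63, on shMOF ERα(-) replicate 3, the array with the largest weight. Without that array its unweighted difference was -0.19 between shMOF arrays and -0.40 in the interaction. Leaving out 1 array at a time gave 0 to 5 genes for shMOF in ERα(-), 0 to 30 in ERα(+), 0 to 4 between control arrays, 0 to 11 between shMOF arrays and 0 to 570 in the interaction, with each highest count reached without shMOF ERα(-) replicate 2. The interaction also gave 11 genes when shMOF ERα(+) replicate 1 was left out, and leaving out control ERα(+) replicate 3 gave 1 gene in it and 1 for shMOF in ERα(+). The 2 compared groups alone gave 9 genes between control arrays, and the code letter of the samples, as a random block, gave 5 in the interaction.

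The median over hypoxia and glycolysis members without 1 array ran from -0.59 to 0.29 for shMOF in ERα(-), from -0.41 to -0.32 in ERα(+), from -0.49 to 0.50 between control arrays, from -0.40 to -0.13 between shMOF arrays and from -0.76 to 0.18 in the interaction. That over stress members ran from -0.42 to 0.12, from -0.34 to -0.13, from -0.41 to 0.14, from -0.28 to -0.12 and from -0.35 to 0.36 in the same order. The sign turned for both programmes without control ERα(-) replicate 1 in shMOF against control in ERα(-) and in ERα(+) against ERα(-) of control arrays. In the interaction it turned for hypoxia and glycolysis members without control ERα(-) replicate 2 (0.10) or 3 (0.18). For stress members, whose median there was 0.03, it turned without control ERα(-) replicate 1 (-0.35) or control ERα(+) replicate 2 (-0.07). It was -0.03 both with quantile normalization again and when shMOF ERα(-) replicate 2 was left out. With array quality weights the medians over hypoxia and glycolysis and over stress members were 0.22 and 0.02 for shMOF in ERα(-) and 0.14 and 0.02 between control arrays, and the stress median was -0.17 in the interaction. The cause of these shifts was not tested. The replicate number as a block gave 2 genes in the interaction and 0 in the other 4 comparisons. Same-numbered arrays of different groups deviated together at r between -0.179 and 0.453 over 18 pairs, with a median of 0.049. Different-numbered arrays did so at -0.424 to 0.371 over 36 pairs, with a median of -0.037. The 2 ranges overlap widely, so whether the numbers pair the arrays cannot be told from them. The interaction has no fit of 2 groups alone, and the dim filter leaves out EGLN3. The remaining alternatives kept each call and each median's sign. With 3 arrays a group, differences below about 0.33 log2 units lie within the typical 95% interval.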

Other observations

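Among the 7364 genes at or above the median level and in none of the lists, the profiles most like the mean of the stress members over the 12 arrays were those of JUND (Pearson r = 0.974), HILPDA (0.970), PNRC1 (0.968), EFNA3 (0.960), MARCKS (0.957), SIAH2 (0.955), JUN (0.944) and KDM6B (0.944). JUN and JUND encode parts of the AP-1 transcription factor, HILPDA encodes a lipid droplet protein known as a HIF target, and SIAH2 encodes a ubiquitin ligase. JUND read 9.37 on control ERα(-) replicate 1 and 7.32 to 8.31 on the other 11 arrays, and HILPDA 9.12 and 6.92 to 7.54. Those most like the mean of the hypoxia and glycolysis members were BCL6 (0.958), RNF24 (0.95), JUND (0.949), TENT4A (0.940), PNRC1 (0.939), HILPDA (0.930), EIF1 (0.927) and ZNF367 (0.926). Over the other 11 arrays PNRC1 stood at 0.928, JUND at 0.898 and HILPDA at 0.842 with the stress members, and RNF24 at 0.83, PNRC1 at 0.817, BCL6 at 0.759 and HILPDA at 0.568 with the hypoxia and glycolysis members. Over those 11 arrays the genes at the top were LGMN (0.991), which encodes a lysosomal protease, and BAIAP2L1 (0.978).

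Genes outside the 45 with the widest margins on control ERα(-) replicate 1, chosen after their values were seen, included RIMKLA at 7.19 against 4.72 to 5.49 on the other 11 arrays, TMEM45A at 7.33 against 5.02 to 5.67, and ULBP1, a stress ligand seen by natural killer cells, at 7.65 against 5.48 to 6.14. MIR616, whose precursor lies inside the DDIT3 gene in RefSeq, exceeded every other array by 1.36 log2 units there, and the array cannot tell its signal from that of the host transcript.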
